A study of Mus musculus with 6 samples.

Results

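T cell receptor genes of the γ and δ chains were followed through sorted αβ T cells of the mouse kidney: the γ variable gene Trgv2, the γ constant genes Tcrg-C1, Tcrg-C2 and Tcrg-C4, and the δ constant gene Trdc. These 5 genes were found by their symbols among the 32285 features of the count matrices. They were chosen by their UMIs (unique molecular identifiers, 1 per captured transcript) in these same 6 libraries, so their levels are given as a description and no test was made of them.

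Single-cell RNA sequencing had been done on kidney T cells of wild-type male C57BL/6J animals, 7 to 8 weeks old. The control libraries came from normal kidneys, and the IR libraries from kidneys reperfused after both renal pedicles had been clamped for 30 min. Live CD45+ cells were sorted with the TCR antibody H57-597, which binds the TCRβ chain, and split into CD4, CD8 and DN cells (neither CD4 nor CD8). Each of these 6 groups had 1 library, the sources used here did not give the number of mice behind a library, and no difference therefore has a replicate check.

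A T cell carries either an αβ or a γδ receptor, and both are assembled in the thymus from gene segments. Rearrangement of the γ genes starts in thymocytes that have not yet chosen a lineage, so cells that become αβ T cells can keep rearranged γ genes, and transcription of these in αβ cells is under separate control. The δ genes lie inside the α locus and are deleted from a chromosome when that α locus rearranges. A γ constant transcript in an αβ cell is therefore not by itself a sign of a γδ receptor.

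The γ genes are arranged in cassettes on chromosome 13 (GRCm38, GENCODE M21 annotation). Tcrg-C1 (chr13:19214103-19217024) and Tcrg-C4 (chr13:19344558-19352756) lie on the plus strand. Trgv2 (chr13:19336573-19337167), the joining segment Trgj2 and Tcrg-C2 (chr13:19304649-19307551) lie on the minus strand and form 1 cassette. Trdc lies on chromosome 14 (chr14:54142851-54148868, plus strand), upstream of the α constant gene Trac, and overlaps Trdv5 and Gm43434 on the opposite strand, while none of the γ members overlaps another feature of the matrices.

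Several of these genes are near copies, so their sequences are shown to let a reader see how far a read can tell them apart. The first 120 bases of exon 1 of the 3 constant genes are given here in the direction of transcription, with the 15 positions at which they are not all alike in capitals. Tcrg-C1 (chr13:19214103-19214222) and Tcrg-C2 (chr13:19307432-19307551) differed at 2 of these bases, while Tcrg-C4 (chr13:19344558-19344677) differed from Tcrg-C1 at 14.
Tcrg-C1: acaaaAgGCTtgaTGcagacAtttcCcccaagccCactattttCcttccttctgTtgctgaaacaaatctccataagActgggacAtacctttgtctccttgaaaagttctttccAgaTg
Tcrg-C2: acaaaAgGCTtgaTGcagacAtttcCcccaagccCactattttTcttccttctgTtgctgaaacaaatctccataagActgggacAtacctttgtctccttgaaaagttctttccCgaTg
Tcrg-C4: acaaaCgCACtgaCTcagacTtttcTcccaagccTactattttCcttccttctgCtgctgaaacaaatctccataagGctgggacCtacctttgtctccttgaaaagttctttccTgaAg

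Over the whole transcript, Tcrg-C1 and Tcrg-C2 were 96.1% identical and shared 14 of the 834 possible 91-base reads of Tcrg-C1. It shared another 36 with Tcrg-C3, a γ constant gene that is not a member. Tcrg-C4 shared no such read with any of them. The 14 shared with Tcrg-C2 all start near the 3′ end of Tcrg-C1, where reads of these libraries fall, and 0 of those shared with Tcrg-C3 do. Of these 36, however, 32 start near the 3′ end of Tcrg-C3, so reads of Tcrg-C3 from there can match Tcrg-C1. The split of counts between Tcrg-C1 and Tcrg-C2 is therefore less certain than that of Tcrg-C4.

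Trgv2 belongs to a group of near-identical variable genes with Tcrg-V1 and Tcrg-V3. A stretch of exon 2 of each is shown because Trgv2 was 95.2% identical to Tcrg-V1 and 94.6% identical to Tcrg-V3 over the aligned transcript. Trgv2 (chr13:19336760-19336879, minus strand), Tcrg-V1 (chr13:19340151-19340270, plus strand) and Tcrg-V3 (chr13:19242995-19243114, plus strand) were not all alike at 6 of the 120 bases, in capitals.
Trgv2: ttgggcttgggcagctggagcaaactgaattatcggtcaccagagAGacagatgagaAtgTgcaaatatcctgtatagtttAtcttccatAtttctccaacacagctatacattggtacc
Tcrg-V1: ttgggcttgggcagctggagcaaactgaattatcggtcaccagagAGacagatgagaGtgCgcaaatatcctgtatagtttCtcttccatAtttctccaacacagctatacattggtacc
Tcrg-V3: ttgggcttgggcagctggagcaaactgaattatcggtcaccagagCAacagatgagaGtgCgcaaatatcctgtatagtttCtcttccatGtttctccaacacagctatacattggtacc

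No 91-base stretch of the Trgv2 transcript was shared with Tcrg-V1 or Tcrg-V3.

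After filters, 47939 T cells remained, with 4042 to 10108 per library. Median depth was 6626 to 8364.5 UMIs per cell in the 3 control libraries and 1450.5 to 2355.5 in the 3 IR libraries. The file headers name Cell Ranger 5.0.1 for control and 6.0.1 for IR, so condition and software version cannot be told apart. Ribosomal protein genes took 16.5% to 22.8% of UMIs in control and 27.5% to 43.1% in IR, and were left out of the totals. Of the kept cells, 277 had a barcode that also occurred in another library. Leaving these cells out kept each ratio and share of the members that was recomputed within its 95% interval. The sorted coreceptors were checked by their transcripts. Cd4 UMIs were found in 57.0% of control CD4 cells and 0.146% of control DN cells, and Cd8a or Cd8b1 UMIs in 96.5% of control CD8 cells and 0.899% of control DN cells. In the IR libraries Cd4 was seen in 18.4% of CD4 cells and 2 of 4042 DN cells, and Cd8a or Cd8b1 in 69.5% of CD8 cells.

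Over all kept cells of a library, all 4 γ genes were highest in DN cells, intermediate in CD4 cells and lowest in CD8 cells, in control and in IR kidneys. Levels are given as CPM, the UMIs of a gene summed over all cells of a library and scaled to the library's total (counts per 1e6 UMIs). Trgv2 stood at 193 CPM in control DN (95% interval 190 to 197), 37.0 in control CD4 (35.4 to 38.7) and 11.6 in control CD8 (10.7 to 12.7). In the IR libraries it stood at 97.8 CPM in DN (88.8 to 108), 26.4 in CD4 (23.9 to 29.1) and 8.38 in CD8 (6.30 to 10.9). No interval of 1 subset overlapped that of another within a condition. These exact Poisson intervals, like all intervals given here, cover counting error only.

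The constant genes had the same order. Tcrg-C1 was at 63.7, 17.5 and 4.96 CPM in control DN, CD4 and CD8 and at 64.5, 19.6 and 2.33 CPM in the IR libraries. Tcrg-C2, of the Trgv2 cassette, was at 146, 42.6 and 12.8 CPM in control and 66.1, 21.9 and 4.19 CPM in IR. Tcrg-C4 was at 122, 35.3 and 4.28 CPM in control and 113, 27.3 and 3.1 CPM in IR. The IR CD8 values rest on 15, 27 and 20 UMIs of the 3 genes, against 226, 581 and 195 in control CD8.

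Trdc did not follow the γ genes. It was at 2.53 CPM in control DN (154 UMIs), 3.20 in control CD4 (162 UMIs) and 5.60 in control CD8 (255 UMIs), and at 2.05, 3.68 and 4.66 CPM in IR DN, CD4 and CD8, from 9, 57 and 30 UMIs. By summed UMIs the order was thus CD8, CD4, DN in both conditions, opposite to that of the γ genes. The interval of control DN (2.15 to 2.97) overlapped that of control CD4 (2.73 to 3.74) but not that of control CD8 (4.93 to 6.33), and the intervals of all 3 IR libraries overlapped.

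**Figure D1:**
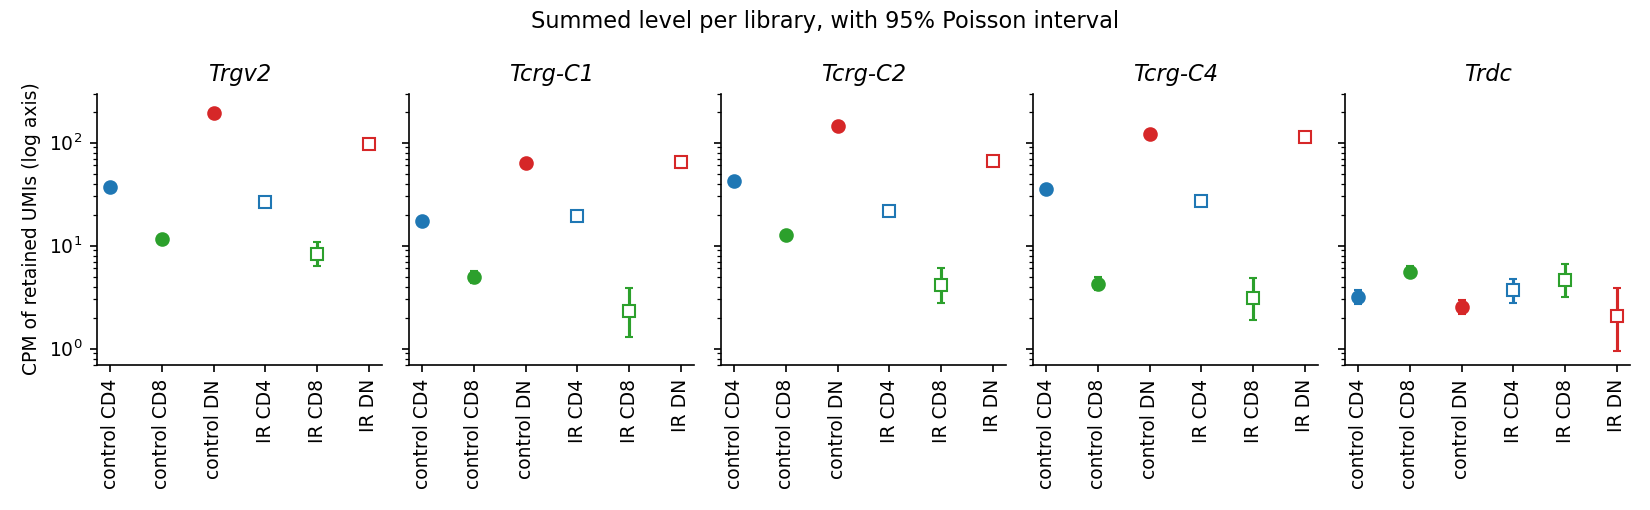
Level of each gene in the 6 libraries, in CPM on a log axis, with exact 95% Poisson intervals (counting error only, some smaller than the symbol); filled circles are control, open squares IR. The 4 γ genes are highest in DN (red), from 63.7 to 193 CPM, then CD4 (blue), then CD8 (green), while Trdc stays between 2.05 and 5.60 CPM in every library; levels are not comparable between genes.

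As ratios, the Trgv2 level of control DN cells was 5.22 times that of control CD4 (log2 2.38, 2.31 to 2.45) and 16.6 times that of control CD8 (log2 4.05, 3.93 to 4.18). Tcrg-C1, Tcrg-C2 and Tcrg-C4 stood at 3.65, 3.42 and 3.45 times the CD4 level in control DN, and at 12.8, 11.4 and 28.4 times the CD8 level. In IR, the DN over CD4 ratios were 3.70, 3.30, 3.02 and 4.14 for Trgv2, Tcrg-C1, Tcrg-C2 and Tcrg-C4. Among cells with a UMI of the coreceptor they were sorted on, with DN cells having none, these IR ratios were larger, at log2 3.44, 3.05, 2.92 and 3.55 in place of 1.89, 1.72, 1.59 and 2.05. In control the CD4 over CD8 ratio was 8.24 for Tcrg-C4 and 3.18, 3.52 and 3.34 for Trgv2, Tcrg-C1 and Tcrg-C2. In IR it was 8.81 for Tcrg-C4 and 8.41 for Tcrg-C1, from 20 and 15 UMIs in CD8, and 3.15 and 5.23 for Trgv2 and Tcrg-C2. Among cells with a UMI of their sorted coreceptor, Trgv2 was at 9.06 CPM in IR CD4 and 6.60 in IR CD8, so the step between them was smaller. There Tcrg-C1, Tcrg-C2 and Tcrg-C4 were at 7.81, 8.74 and 9.68 CPM in IR CD4 and at 2.34, 3.19 and 3.19 CPM in IR CD8.

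The count of genes that differed took those at least 2-fold apart with 10 CPM or more in the higher library. All 4 γ members were higher in DN than in CD4, where 1.35% of 8858 genes were higher and 1.4% lower in control, and 4.84% of 8898 higher and 2.46% lower in IR. All 4 were also higher in DN than in CD8, against 3.55% of genes higher and 3.03% lower in control and 7.74% and 4.21% in IR. All 4 were higher in CD4 than in CD8, against 2.61% of genes higher and 1.75% lower in control and 3.73% and 3.9% in IR. Among IR cells with a UMI of their sorted coreceptor, all 4 were under 10 CPM in CD4 and in CD8 and could not be counted. No member was lower in these 6 comparisons. The rule by which the members were found used these libraries, so these counts are descriptive. Trdc never reached 10 CPM and could not be counted.

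Among the other features of the γ locus, 2 were abundant enough to compare. The matrices hold 15 γ features, of which 6 reached 10 CPM in a DN library: the 4 members and the variable genes Tcrg-V1 and Tcrg-V4. These 6 were all higher in DN than in CD4 and than in CD8, in both conditions. Tcrg-V1, whose gene lies next to the Tcrg-C4 cassette, was at 17.4 CPM in control DN and 2.55 in control CD4, and at 15.5 and 4.91 CPM in IR DN and CD4. Tcrg-V4, of the Tcrg-C1 cassette, was at 13.3 CPM in control DN and 4.15 in control CD4, and at 13.5 and 4.72 CPM in IR DN and CD4. Tcrg-V6, the variable gene of innate-like γδ cells of epithelia, had 123 UMIs in control DN (2.02 CPM) and 26 in IR DN (5.93 CPM). The matrices also hold 11 δ features, and none of these reached 10 CPM in a library.

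To compare shares of cells, each cell was thinned to 1000 UMIs in total, ribosomal ones included, and shallower cells were left out. At that depth 1152 of 8868 control DN cells had a Trgv2 UMI, or 12.99% (12.3 to 13.7). In IR DN 224 of 3647 cells did, or 6.14% (5.38 to 6.97). At 1000 UMIs without the ribosomal and other removed features, the shares were 15.6% and 8.81%. It was found in 2.63% of control and 1.52% of IR CD4 cells, and in 0.789% of control and 0.407% of IR CD8 cells. A UMI of Tcrg-C1, Tcrg-C2 or Tcrg-C4 was found in 20.2% of control DN and 14.5% of IR DN cells, in 5.59% and 3.99% of CD4 cells, and in 1.70% and 0.488% of CD8 cells. Trdc was found in 0.124% of control DN and 0.137% of IR DN cells. It was found in 23 of 9154 control CD4 and 21 of 8740 control CD8 cells, and in 22 of 9980 IR CD4 and 16 of 6148 IR CD8 cells. In control, the CD8 share of cells was thus not above that of CD4, unlike the summed UMIs.

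Barcodes of 2 clusters with few T cell transcripts, at median depths of 1467 and 1757.5 UMIs, served as the background, though 17.2% and 12.7% of them had a CD3 UMI. Trgv2 was found in 2 of 255 such barcodes at the same depth, or 0.784% (0.0951 to 2.80), and a γ constant UMI in 0.392% (0.00993 to 2.17). All shares of Trgv2 and of the γ constant genes in CD8 cells, and those of Trgv2 in CD4 cells, lay within these wide intervals. All 4 Trgv2 UMIs of these barcodes at full depth came from 35 control barcodes, where Trgv2 was at 34.8 CPM (9.48 to 89.1) and the γ constant genes at 113 CPM (60.2 to 193). The 303 IR barcodes had 0 Trgv2 UMIs, with an upper limit of 8.96 CPM, which lay below the 26.4 CPM of IR CD4 cells, whereas the control CD4 levels, 37.0 CPM for Trgv2 and 95.4 for the γ constant genes, lay within the intervals of the 35 control barcodes. The DN shares, and the CD4 shares of the γ constant genes, lay above them.

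**Figure D2:**
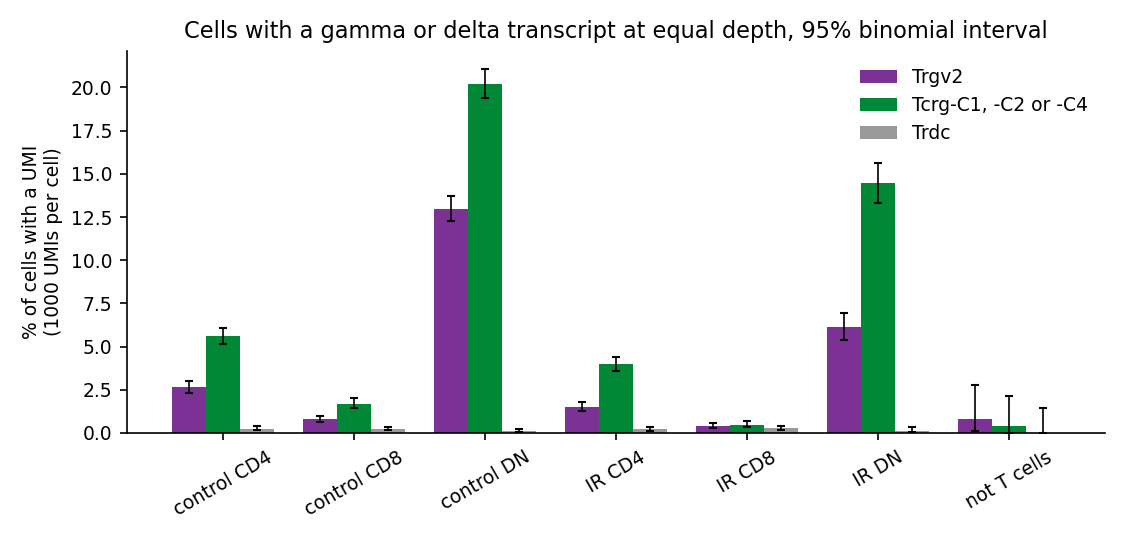
Percent of cells with a UMI of Trgv2, of any of Tcrg-C1, -C2 and -C4, or of Trdc, after thinning each cell to 1000 UMIs, with 95% Clopper-Pearson intervals; the last group is barcodes of the 2 clusters that are not T cells. DN cells stand at 12.99% and 6.14% for Trgv2 and 20.2% and 14.5% for the constant genes, and Trdc stays under 0.3% everywhere.

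Without thinning, the shares were far larger in the deeper control libraries. Trgv2 was seen in 46.6% of the control DN library and 8.98% of the IR DN library, and a γ constant UMI in 61.7% and 20.1%. In control DN, 1391 cells had 1 Trgv2 UMI, 1002 had 2, 614 had 3 and 713 had 5 or more, with at most 22 in a cell. In IR DN, 306 of the 363 cells with Trgv2 had 1 UMI. Either Trgv2 or a γ constant UMI was seen in 66.8% of control DN cells, and 89.0% of the cells with Trgv2 also had a γ constant UMI, while 67.2% of cells with a γ constant UMI had Trgv2.

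Most cells with γ transcripts also carried αβ receptor transcripts. In control DN cells at 1000 UMIs, Trac was found in 42.9% of cells with Trgv2 and 41.2% without, Trbc1 in 34.1% of both, and Trbc2 in 67.7% and 66.5%. Any of these 3 constant genes was found in 87.9% of cells with Trgv2 (85.9 to 89.8, n = 1152) and 88.0% without (87.3 to 88.7, n = 7716). At full depth 4145 control DN cells had a Trgv2 UMI, so many of the cells without it at 1000 UMIs carry the transcript. This shrinks any difference between the 2 groups. In IR DN cells the shares were 83.9% (78.5 to 88.5, n = 224) and 82.2% (80.9 to 83.4, n = 3423). A Cd3d, Cd3e or Cd3g UMI, of the CD3 chains that both kinds of receptor need, was found in 90.7% with and 89.7% without Trgv2 in control DN. Split by the γ constant genes instead, any αβ constant UMI was found in 89.7% of control DN cells with (88.2 to 91.1) and 87.5% without (86.8 to 88.3), whose intervals just overlapped. It was more frequent with Tcrg-C4 in control DN, at 91.01% (88.7 to 93.0) against 87.7% (87.0 to 88.4), and with a γ constant UMI in control CD8, at 96.6% (92.3 to 98.9) against 91.5% (90.8 to 92.0). A CD3 UMI was found in 91.7% of control DN cells with a γ constant UMI (90.4 to 93.0) and 89.3% of those without (88.6 to 90.03).

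At full depth, 99.8% of the control DN cells with Trgv2 had a Trac, Trbc1 or Trbc2 UMI, and 95.7% had both an α and a β constant UMI, against 99.0% and 91.8% of those without. Cells with Trgv2 were slightly deeper, at a median of 8629 against 8146 UMIs. In the CD4 libraries any αβ constant UMI was found, at 1000 UMIs, in 88.0% with and 86.7% without Trgv2 in control and in 84.2% and 86.7% in IR. At full depth, 26 control DN cells (0.627%) with Trgv2 had a Trdc UMI, against 0.463% of those without, as did 1 control CD4 cell. In control CD8 the shares were 2.46% with Trgv2 (0.997 to 5.01, 7 of 284 cells) and 0.743% without (0.576 to 0.942), and 2.42% with a γ constant UMI and 0.712% without. At 1000 UMIs, Trbc1 stood apart in control CD4 cells, at 42.7% with Trgv2 (36.4 to 49.2, n = 241) and 33.3% without (32.3 to 34.3). It also did in control CD8 cells, at 58.0% with (45.5 to 69.8, n = 69) and 43.5% without (42.5 to 44.6). Trac stood apart in control CD8 cells split by the γ constant genes, at 56.4% with (48.0 to 64.5, n = 149) and 45.1% without (44.0 to 46.1). Trbc1 and Trbc2 share 201 of the 647 possible 91-base reads of Trbc1, of which 0 start near its 3′ end, where reads of these libraries fall.

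**Figure D3:**
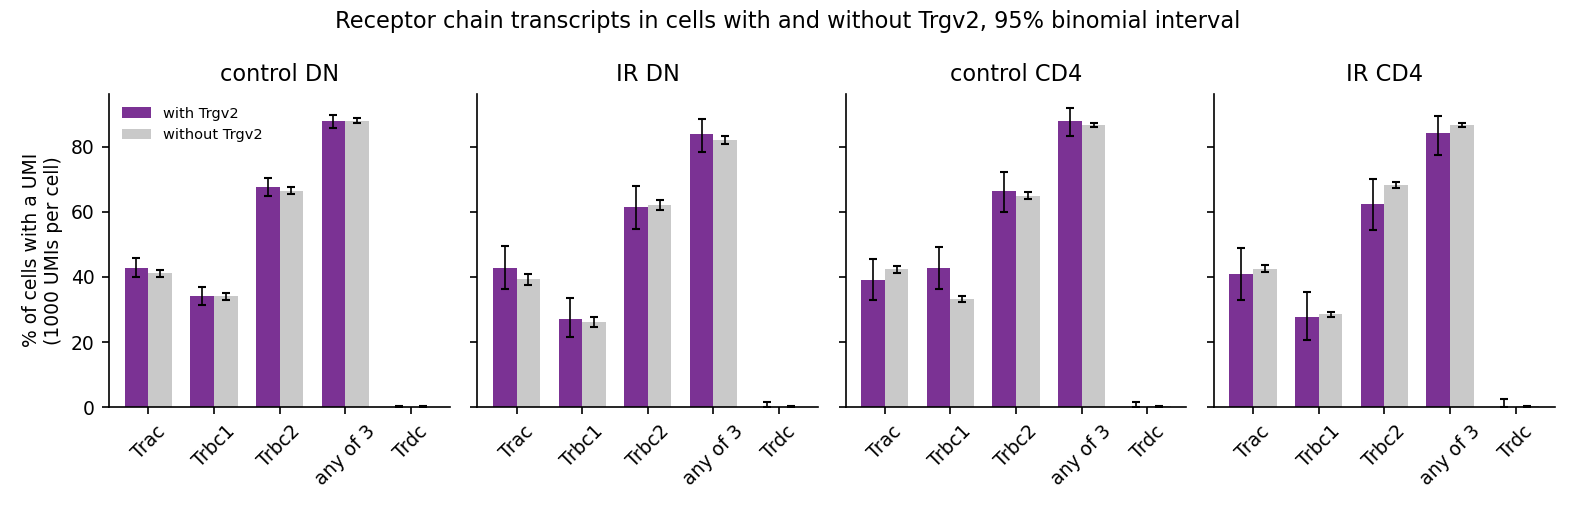
Percent of cells with a Trac, Trbc1 or Trbc2 UMI, any of these 3, or Trdc, in cells with (purple) and without (grey) a Trgv2 UMI, each thinned to 1000 UMIs, with 95% Clopper-Pearson intervals. Any αβ constant UMI stands at 87.9% and 88.0% in control DN and at 83.9% and 82.2% in IR DN, and at this depth 0 cells with Trgv2 in these 4 libraries had a Trdc UMI. Many control DN cells without Trgv2 at this depth had it at full depth.

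A pair of γ and δ constant transcripts in 1 cell was rare. Of 9162 cells with a γ constant UMI, 9114 (99.5%) had no Trdc UMI. The other 48 cells had both, 34 of them in control DN and 11 in control CD8. In 44 of the 48 a Trac UMI was also present, and 0 of 47939 cells had both γ and δ constant UMIs with no Trac, Trbc1 or Trbc2 UMI. A count of 0 allows, by the one-sided limit of 3 counts, up to 3 in 47939 cells for that pattern of UMIs, which is no limit on cells with a γδ receptor, since Trdc was at 2.05 to 5.60 CPM and nearly all control cells had an αβ constant UMI.

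In the control libraries, most Trdc UMIs came from few cells. There 69 cells with 3 or more Trdc UMIs held 65.4% of the Trdc UMIs of CD4 cells, 76.5% of those of CD8 cells and 77.9% of those of DN cells. In the IR libraries such cells held 15.8%, 23.3% and 0.0%. Over all 6 libraries there were 73 such cells, and 71 had a Trac UMI, 71 a Trbc1 or Trbc2 UMI, 73 a CD3 UMI and 24 a γ constant UMI. The γδ genes Sox13, Cd163l1 and Blk were seen in 0, 1 and 1 of the 73 cells, while a δ variable gene was seen in 13, Trgv2 in 20 and Tcrg-V4 in 5. These cells had 0.111, 0.786 and 2.09 γ constant UMIs each in control CD4, CD8 and DN, against 0.521, 0.108 and 2.26 over all cells of those libraries. They had 5.0, 4.75 and 4.35 Trac UMIs each, against 4.49, 4.07 and 4.95 over all cells. Blk was also among the leading genes of cluster 19, with Il23r, Il1r1 and Il17re. The 52 control DN cells of that cluster had Tcrg-C1 at 196 CPM and Trdc, from 6 UMIs, at 13.5 CPM. Over the control DN library these were at 63.7 and 2.53 CPM. Tcrg-C2 and Tcrg-C4 went the other way, at 121 and 85.4 CPM against 146 and 122. After thinning, 86.5% of the 52 cells had an αβ constant UMI. Whether they carry a γδ receptor was not tested.

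Among themselves, the γ transcripts were found together in single cells more often than their separate shares give. In thinned control DN cells, 228 had both Trgv2 and Tcrg-C2, where independent shares give 117, a ratio of 1.95. The ratio for Trgv2 was 1.65 with Tcrg-C4 and 1.59 with Tcrg-C1, which lie in other cassettes, and 3.59 with Trgj2, from 7 cells. In thinned IR DN cells it was 3.38 with Tcrg-C2 (32 cells), 2.01 with Tcrg-C1 (18 cells) and 1.76 with Tcrg-C4 (29 cells). Tcrg-C1 went with Tcrg-V4 at 3.12 (14 cells) and Tcrg-C4 with Tcrg-V1 at 1.76 (16 cells) in thinned control DN cells. The ratio of Trgv2 to Trac was 1.04 in control and 1.09 in IR.

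The γ transcripts of the CD4 libraries sat in the clusters that also held the DN cells. Clusters were built without receptor genes and are given by number, and those described next held at least 10% of the DN cells of a condition. Nearly all cells of each came from 1 condition. In control, clusters 1 (led by Serpina3f, Ccl1 and Klrb1f), 2 (Ly6c1, Slc35f3 and Ckb) and 8 (the NK receptor genes Klra5, Klra9 and Klre1) held 83.2% of DN cells and 32.4% of CD4 cells, and 84.2% of the Trgv2 UMIs of the CD4 library. CD4 cells in these clusters had Trgv2 at 78.1 CPM and the γ constant genes together at 213 CPM, against 9.72 and 17.1 CPM in the other CD4 cells. In IR, clusters 6 (led by Calca and Ramp3) and 21 (Gm26532, Srrm4 and Chl1) held 92.9% of DN cells, 38.0% of CD4 cells and 91.4% of the Trgv2 UMIs of the CD4 library. CD4 cells there had Trgv2 at 62.9 CPM, against 3.67 CPM (2.56 to 5.11) in the others.

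CD4 cells outside those clusters were not alike. The larger of these clusters had little γ transcript. In cluster 0, led by Cd4 itself, Trgv2 was at 1.86 CPM in 3080 control CD4 cells. In cluster 7, led by Areg, Tnfrsf4 and Foxp3, the factor of regulatory T cells, it was at 2.67 CPM in 2243 IR CD4 cells, and in cluster 16, led by Pdlim4 and Igfbp4, at 0.772 CPM in 2830. In cluster 5 (led by Gm2245, Gm36975 and Gm20663), by contrast, Trgv2 was at 44.4 CPM in 1640 control CD4 cells and, from 7 UMIs, at 56.5 CPM in 118 IR CD4 cells. These control CD4 cells were shallow, at a median of 2345.5 UMIs against 7023.5 for the library, and 72.8% of them had an αβ constant UMI at 1000 UMIs; the part of this in their level was not tested. In cluster 13, led by the cell division genes Hmmr and Ccna2, it was at 50.9 CPM in 121 control CD4 cells. Cd4 transcripts were less often seen beside Trgv2, in 44.4% of 984 control CD4 cells with Trgv2 and 58.5% of those without, and in 7.55% of 318 and 18.7% of the others in IR CD4, while control DN cells had 0.146%. Restricted to cells with a Cd4 UMI, control CD4 cells had Trgv2 at 27.8 CPM in place of 37.0, and IR CD4 cells at 9.06 in place of 26.4. In the latter the log2 ratio of IR over control CD4 moved from -0.49 to -1.62, past 2-fold. The part of DN cells in the CD4 sort in these levels was not tested.

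Within a cluster, DN cells still had more γ transcript than CD4 cells. In control, Trgv2 was higher in DN in 6 of the 6 clusters with at least 50 cells of each, by log2 1.29 to 3.61, each with an interval above 0. The γ constant genes together were higher in 6 of 6, by log2 0.67 to 2.18. In cluster 1 the γ constant genes stood at 453 CPM in DN and 284 in CD4, in cluster 2 at 303 and 179, and in cluster 8 at 354 and 197. In IR they were higher in DN in 5 of 5 clusters, by log2 0.53 to 6.44, and Trgv2 was higher in 5 of 5, though with an interval above 0 in 2 of them. Tcrg-C2 taken alone was higher in IR DN in 3 of 4 clusters. In cluster 4 it was at 14.8 CPM in DN and 43.0 in CD4, from 1 and 9 UMIs. Against control CD8 cells, Trgv2 was higher in DN in 2 of 3 such clusters, by log2 3.33 in cluster 5 and 4.49 in cluster 13, and in IR in 3 of 3, with an interval above 0 in 2. In cluster 21, with 3098 of the 4042 IR DN cells, the Trgv2 ratio was log2 0.32 (-0.45 to 1.20), and cluster 4 had 0 Trgv2 UMIs in CD8. The γ constant genes together were higher in IR DN than in IR CD8 in 3 of 3 clusters, each with an interval above 0. In cluster 21 they were at 239 CPM in DN and 62.0 in CD8 (log2 1.95, 1.10 to 2.96). The exception in control was cluster 15. In cluster 15, led by Ncr1 and Klra7, Trgv2 was at 113 CPM in 82 control CD8 cells and 92.3 CPM in 698 DN cells (log2 ratio of DN over CD8 -0.29, -0.67 to 0.11). The γ constant genes together were higher in the CD8 cells, at 228 and 168 CPM (log2 -0.44, -0.70 to -0.16). Tcrg-C4 alone was at 54.8 CPM in these CD8 cells and 68.0 in DN (log2 0.31, -0.22 to 0.89). Between CD4 and CD8 cells of 1 cluster the order of the whole libraries did not always hold. In IR cluster 20 Trgv2 was at 0.92 CPM in CD4 and 12.6 CPM in CD8 cells, from 1 and 28 UMIs (log2 -3.78, -9.13 to -1.18). In cluster 21 it was at 59.6 and 78.9 CPM (log2 -0.40, -1.18 to 0.49), while the γ constant genes were higher in CD4 cells, at 165 and 62.0 CPM (log2 1.42, 0.57 to 2.42). In control clusters 5 and 13 Trgv2 was higher in CD4 than in CD8 cells, by log2 1.07 and 1.86.

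**Figure D4:**
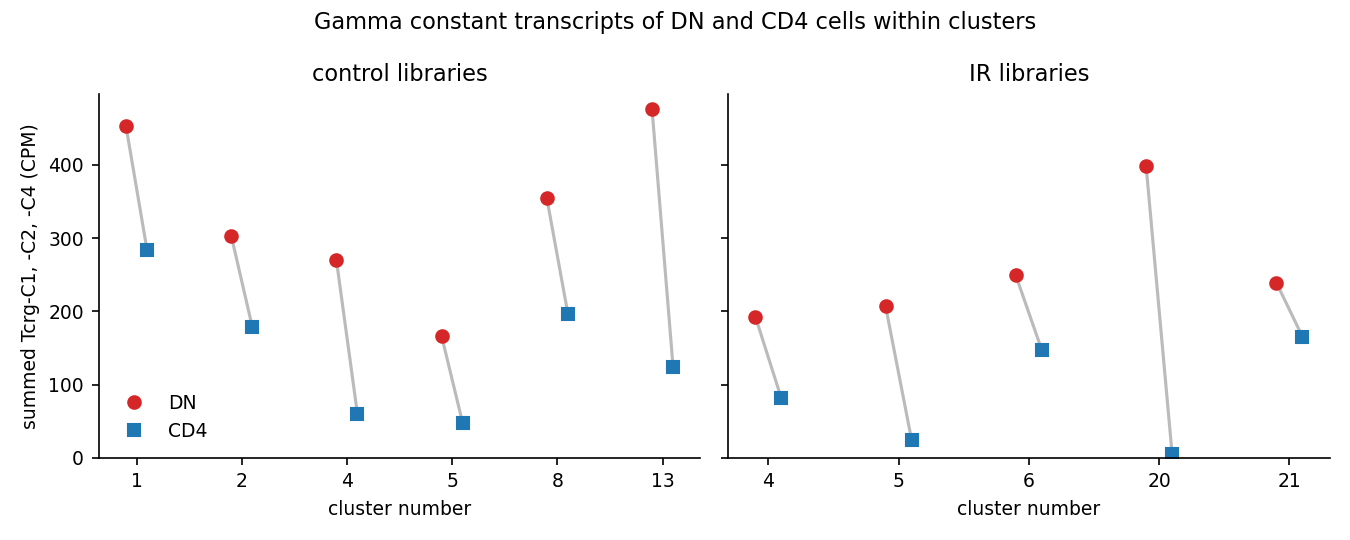
Summed level of Tcrg-C1, Tcrg-C2 and Tcrg-C4, in CPM from 0, in DN cells (red circles) and CD4 cells (blue squares) of the same cluster, for clusters with at least 50 cells of each; grey lines join the pair. DN cells are higher in all 6 control clusters and all 5 IR clusters shown; cluster numbers carry no order.

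Zbtb16, the gene of PLZF, a transcription factor of invariant NKT and other innate-like T cells, also split the CD4 library by its γ transcripts. Its use here was chosen after its values were seen. Control CD4 cells with a Zbtb16 UMI had Trgv2 at 77.7 CPM (2960 cells) and those without at 13.2 CPM (6294 cells). In IR CD4 cells the values were 75.7 and 20.96 CPM, though 117 of the 409 Trgv2 UMIs lay in cells with a Zbtb16 UMI. In control DN cells they were 199 and 184 CPM, so that Zbtb16 split the CD4 cells but hardly the DN cells. Ccr7, the homing receptor of naive T cells, split the CD4 cells the other way, with Trgv2 at 6.13 CPM in control CD4 cells with Ccr7 and 39.6 CPM in those without.

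Control DN cells with and without a Trgv2 UMI were nearly alike in their other transcripts. Of the 4145 cells with Trgv2, 1391 had 1 UMI, so cells without it may carry transcript that was not captured. This would shrink any difference between the 2 pools. Of 4279 genes at 50 CPM or more in the higher pool, 1 was at least 2-fold higher in control DN cells with Trgv2 than in those without (0.0234%) and 0 were lower (0.0%). In IR DN cells 16 of 4133 genes (0.387%) were higher and 11 (0.266%) lower. The 1 gene higher in control DN was Gzma, of the cytotoxic granule protease granzyme A, at 104 CPM with and 48.4 without Trgv2 (log2 1.10, 1.01 to 1.19). In IR DN it was at 243 and 130 CPM (log2 0.90, 0.59 to 1.21). Over all libraries, Gzma was at 8944 CPM in cluster 18 and 59.7 in the other cells. That cluster held 36 control DN cells with 85 Trgv2 UMIs, and their part in the ratio was not tested. Next came Klra5, an NK receptor of the Ly49 family, at 82.0 and 44.3 CPM (log2 0.89), Chst2 (log2 0.67), Gzmb, of granzyme B (log2 0.57), and Nav2 (log2 0.54). Pdcd1, the gene of PD-1, was at 32.6 and 17.1 CPM in control DN (log2 0.93) and at 43.6 and 22.0 CPM in IR DN (log2 0.99, 0.19 to 1.71), under the 50 CPM needed to be counted.

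At the lower end in control DN were Tyrobp, an adaptor of NK receptors (log2 -0.76), Fgf13 (log2 -0.69), Klra7 (log2 -0.68), Drosha (log2 -0.60) and the gut-homing receptor Ccr9 (log2 -0.54). Tyrobp was also lower in IR DN (log2 -1.02), as was Klra7, at 20.7 against 72.7 CPM (log2 -1.81, -2.96 to -0.87). Klrb1c, the gene of NK1.1, was nearly level, at 199 and 219 CPM in control DN and 232 and 231 CPM in IR DN.

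The same split was made in the CD4 libraries, where pools with Trgv2 were smaller. The smallest pool, of 41 IR CD8 cells with Trgv2, gave 611 genes higher and 470 lower, and the counts are not compared between libraries. In control CD4, 15 of 4341 genes (0.346%) were higher and 35 (0.806%) lower with Trgv2. Zbtb16 was at 444 and 167 CPM (log2 1.41), Klrb1c at 92.0 and 42.2 CPM (log2 1.12) and Klra1 at 39.9 and 7.04 CPM (log2 2.50). Ccr7 was at 5.24 and 36.9 CPM (log2 -2.82) and S1pr1, the receptor that lets cells leave tissue, at 17.3 and 73.1 CPM (log2 -2.08). In IR CD4 the values went the same way for Zbtb16 (log2 1.66), Klrb1c (log2 1.70), Ccr7 (log2 -3.99) and S1pr1 (log2 -3.51), from 318 cells with Trgv2, and 90 of 4169 genes (2.16%) were higher and 89 (2.13%) lower.

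Between IR and control DN cells, the members of the Trgv2 cassette were lower, while Tcrg-C1 and Tcrg-C4 had intervals that held 0. In DN, Tcrg-C2 fell from 146 to 66.1 CPM (log2 -1.14, -1.31 to -0.97), and Trgv2 was at 97.8 against 193 CPM (log2 -0.98, -1.12 to -0.84), just short of 2-fold. It passed 2-fold under 6 of 11 alternatives, with a range of log2 -1.33 to -0.96. Tcrg-C1 stood at 64.5 against 63.7 CPM (log2 0.02, -0.16 to 0.19) and Tcrg-C4 at 113 against 122 CPM (log2 -0.10, -0.24 to 0.03). The median of all genes was -0.26 on the log2 scale in DN, so that Tcrg-C1 and Tcrg-C4 lay above it and Trgv2 and Tcrg-C2 below it. At least 2-fold lower in IR DN were 11.3% of 9200 genes, among them 1 member, Tcrg-C2, and 8.32% were higher, among them none.

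In CD4 cells the log2 ratios of IR over control were -0.49 for Trgv2 (-0.64 to -0.33), -0.96 for Tcrg-C2 (-1.13 to -0.79), 0.16 for Tcrg-C1 (-0.03 to 0.35) and -0.37 for Tcrg-C4 (-0.52 to -0.21), with a median of -0.26 over all genes, and no member was counted where 15.1% of genes were lower and 7.73% higher. These CD4 values moved with the settings: Tcrg-C2 passed 2-fold under 5 of 11 alternatives, with a range of log2 -1.89 to -0.58, and with the sorted coreceptor Tcrg-C1 was at -0.75 and Tcrg-C4 at -1.38. In CD8 cells Trgv2 was at log2 -0.47 (-0.91 to -0.07) and Tcrg-C4 at -0.46 (-1.21 to 0.20). That Tcrg-C4 ratio ranged from log2 -1.47 to -0.32 and passed 2-fold under 1 of 11 alternatives. Tcrg-C2 was at 4.19 against 12.8 CPM (log2 -1.61, -2.22 to -1.05) and was counted as lower, as were 17.7% of genes, with 7.93% higher. Tcrg-C1 was at 2.33 against 4.96 CPM there (log2 -1.09, -1.95 to -0.34), under the 10 CPM needed to be counted. Trdc had intervals that held 0 in all 3 subsets. These ratios compare 2 libraries each, which also differ in depth and software version, and their part in the ratios was not tested.

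**Figure D5:**
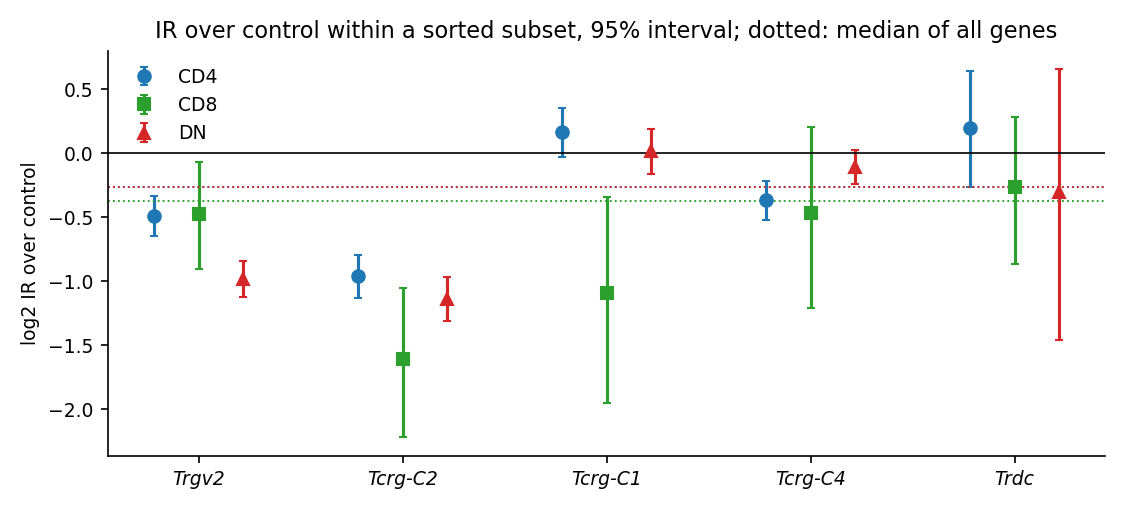
Log2 ratio of IR over control for each member in CD4 (circles), CD8 (squares) and DN cells (triangles), with exact 95% intervals for counting error only; dotted lines are the median of all genes in each comparison (-0.26, -0.38 and -0.26). In DN, Trgv2 (-0.98) and Tcrg-C2 (-1.14) lie below 0 and Tcrg-C1 (0.02) and Tcrg-C4 (-0.10) near 0; in CD8, Tcrg-C2 is at -1.61, Tcrg-C1 at -1.09, Trgv2 at -0.47 and Tcrg-C4 at -0.46, and no difference between subsets was tested.

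Other lists of genes placed these levels in context. The αβ constant genes Trac, Trbc1 and Trbc2 had a median log2 ratio of -0.04 between control DN and CD4, and none was counted. Among 15 genes of recombination and γ locus control, 10 could be compared between control DN and CD4: 0 were higher and 1 was lower (1.35% and 1.4% of all genes), Tcf7, the gene of the T cell factor TCF-1. Il7r, whose signal opens the γ locus in the thymus, was at 147 CPM in control DN and 266 in control CD4, and at 716 CPM in IR DN and 892 in IR CD4. Of 17 genes of the γδ programme found in the matrices, 6 could be compared in control and 2 were higher in DN than in CD4, the membrane protein genes Tmem176a and Tmem176b, where 1.35% of all genes were, and 0 were lower. In IR 1 of 7 was higher, Tmem176b, and 1 lower, Id3, an inhibitor of E proteins, beside 4.84% and 2.46% of all genes. A list of DN and innate-like genes was drawn in part from the study's own reading of these samples and is no independent evidence. Of its 25 genes, 9 of 22 compared were higher, with Klrb1c, Fcer1g, Klre1 and Gzma among them, and 1 was lower, Ccr7, beside the same 1.35% and 1.4% of all genes.

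Over the 6 libraries, the genes most like Trgv2 among 5017 compared, by Pearson's r of log2(CPM + 1), were Prkar1a (r = 0.984), Irak2 (0.984), Kctd12 (0.983), Clnk (0.983) and Arl4d (0.98). Tcrg-C2, Tcrg-C4 and Tcrg-C1 had r of 0.972, 0.967 and 0.964, and Trdc had r of -0.904. Clnk, an adaptor of immune receptor signalling, ran from 89.0 CPM in control DN to 0.621 in IR CD8. The 6 points share the 3 sorts, the 2 software versions and the depth that goes with them, so these values describe the libraries only.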

How the data were processed

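The deposited matrices hold raw counts of UMIs per feature and barcode for 6 libraries, made by the authors from 10x Genomics 3' libraries with Cell Ranger on mm10. The submitters' processing notes name version 6.0.1, the file headers 5.0.1 for control and 6.0.1 for IR. The study's methods state default settings, without naming strand use or intronic counting. Barcodes with at least 500 features, at most 20% mitochondrial UMIs and outside the top 5% of UMIs per library (the study's filter for doublets, no caller was run) were kept, and 338 barcodes in 2 of 24 clusters with a CD3 UMI in under 50% of cells were removed. Mitochondrial and ribosomal protein genes and Malat1 (105 features) were left out of totals of 4385850 to 60767827 UMIs. Clusters came from scanpy 1.11.5 (2000 variable genes without receptor segments, 30 components, 15 neighbours, Leiden resolution 1). With 1 library per group no test was run. Intervals are exact 95% Poisson, Clopper-Pearson or conditional binomial, and a 0 count was set to 3 counts in ratios. TMM factors came from edgeR 4.0.16. Named genes were the members, the gene lists, the 5 genes most correlated with Trgv2, and the 10 highest and 10 lowest between control DN cells with and without Trgv2 at 50 CPM or more. Members and lists were chosen with earlier results of these data known. Sequences were read from GRCm38 with the GENCODE M21 annotation, to which 32158 features (99.6%) matched. The values of 1 gene of the lists are not reported here.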

Additional observations from a re-analysis of the deposited data

Results flagged for a closer look

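Gzma went opposite ways with Trgv2 in different libraries, with no test of the difference. It was higher with Trgv2 in control DN cells (log2 1.10) and lower in IR CD4 cells (log2 -3.76), where 3 Gzma UMIs came from the 318 cells with Trgv2 and 1084 from the others. Klra7 was higher with Trgv2 in control CD4 cells (log2 1.85) and lower in IR DN cells (log2 -1.81), from 53 and 9 UMIs in the cells with Trgv2, and this difference was not tested either.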

How the results depend on the processing

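No paired analysis was possible because the labels carry no replicate numbers and each group had 1 library. No recomputed ratio of a member counted as 2-fold changed sign under any alternative. Of all recomputed ratios, 368 of 438 stayed within the 95% interval of the reported value, while 25 crossed the 2-fold line in size. The CD4 over CD8 ratios were not among those recomputed. Leaving out barcodes shared between libraries, keeping the non-T clusters, TMM scaling and a mitochondrial limit of 10% kept within their intervals the values of Trgv2, the γ constant genes or Trdc in control DN against CD4 or CD8, or IR against control DN. For control DN over CD4, the log2 ratio of Trgv2 was 2.31 without barcode filters, and that of the γ constant genes 1.71 without filters, 1.71 with the top 5% of barcodes kept, 1.92 with thinning to 1000 UMIs and 1.97 as a mean over cells, while Trdc was at -0.74 with thinning. For control DN over CD8, Trgv2 was at 3.86 as a mean over cells, the γ constant genes at 4.01 with removed features kept, 3.49 with thinning and 3.64 as a mean over cells, and Trdc at -0.81 with thinning. For IR over control DN, Trgv2 was at -1.16 with removed features kept and -1.33 when centred within bins of intronic length, and the γ constant genes at -0.62 and -0.60. The Trgv2 ratio, reported as -0.98, was also past 2-fold with TMM scaling (-1.03), non-T clusters kept (-1.02), no barcode filters (-1.02) and as a mean over cells (-1.01). An alternative added after seeing the data kept only cells with a UMI of the coreceptor they were sorted on: control DN over CD4 then rose to 2.80 for Trgv2 and 2.23 for the γ constant genes, and IR DN over CD4 from 1.89 to 3.44 and from 1.82 to 3.22. Shares moved with depth. Trgv2 was found in 46.6% of control DN and 8.98% of IR DN cells without thinning, 6.81% and 3.04% at 500 UMIs, 22.4% and 9.69% at 2000, and 15.6% and 8.81% at 1000 UMIs of retained features. For the γ constant genes these were 61.7% and 20.1%, 11.5% and 7.57%, 33.7% and 19.4%, and 24.0% and 17.9%. The difference in cells with any αβ constant UMI, with minus without Trgv2, was 7.45 percentage points in IR DN for cells with at least 2 Trgv2 UMIs. This value was taken at full depth, not at 1000 UMIs, and rests on 50 cells with 2, 5 with 3 and 2 with 4 Trgv2 UMIs. Counts of genes at least 2-fold apart are given as reported, with no minimum CPM and at 50 CPM. Control DN over CD4 had 120, 1368 and 51 higher and 124, 1639 and 50 lower. Control DN over CD8 had 318, 1937 and 132 higher and 272, 1896 and 112 lower. IR DN over CD4 had 431, 1917 and 129 higher and 219, 984 and 87 lower. IR DN over CD8 had 695, 1934 and 305 higher and 378, 1328 and 147 lower. IR over control had 765, 3350 and 335 higher and 1036, 1953 and 544 lower in DN, 698, 3146 and 382 higher and 1361, 2785 and 776 lower in CD4, and 722, 2987 and 318 higher and 1613, 2901 and 845 lower in CD8. The cause of these moves was not tested, except that shares rise with UMIs per cell by construction. Trdc and the IR CD8 values rest on 9 to 255 UMIs.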
